A study of Mus musculus with 24 samples.

Results

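The transcripts described here are those of 10 mouse genes that act as receptors or mediators of mitophagy, namely Bnip3, Bnip3l, Fundc1, Fkbp8, Phb2, Pink1, Optn, Ulk1, Map1lc3b and Gabarapl1. They were taken from the expression table by their symbols, through the Ensembl identifiers of the mouse annotation. All 10 were found among the 55487 genes listed, and all 10 passed the filter on low counts that left 14541 genes for testing. The RNA came from C2C12 myotubes, the fused muscle cells of a mouse line, wild type by label, which had been differentiated from myoblasts under 5 % O2 and were labelled day 5. Each of the 4 groups held 6 libraries. Unstimulated myotubes were kept for 2 h under 5 % O2 (5 % CTRL, labelled 5CTRL) or under 1 % O2 (1 % CTRL, labelled 1CTRL). Stimulated myotubes spent the same 2 h under 5 % O2 (5 % STIM, labelled 5STIM) or 1 % O2 (1 % STIM, labelled 1STIM) and then received repeated bouts of electrical pulses that imitate sprint exercise. The methods describe fresh medium before the 2 h exposure and a change before and after stimulation, and they do not say whether unstimulated cultures had the changes around stimulation. Nor do they give the O2 level of the medium used for those changes. If only stimulated cultures had them, stimulation and medium change cannot be told apart. The paper describes the profiles of stimulated myotubes as taken immediately after stimulation. All 24 libraries come from this single cell line. The methods call the 6 libraries of a group biological replicates, without saying how their cultures were kept apart, and p-values measure the spread between these libraries.

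Mitophagy is the removal of mitochondria by autophagy, in which a growing membrane, the phagophore, closes around a mitochondrion and delivers it to lysosomes. BNIP3, BNIP3L (also called NIX), FUNDC1 and FKBP8 are receptors in the outer mitochondrial membrane that bind the ATG8 proteins of the phagophore, such as LC3B and GABARAPL1, directly. PHB2 is a receptor of the inner membrane. In the other branch, the kinase PINK1 gathers on mitochondria that have lost their membrane potential and marks ubiquitin there, and adaptors such as optineurin bind that ubiquitin. ULK1 is the kinase that starts the phagophore. Bnip3 and Bnip3l are known targets of the hypoxia-inducible factors in many cell types, and muscle is a tissue in which both have long been studied.

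The libraries held between 26541858 and 28173745 reads, and the 10 genes were read deeply, from 568 reads for Optn to 9336 reads for Bnip3 in a single library. All values are normalized counts, which are gene counts divided by the size factor of the library. Myotube markers were abundant in every library, with a summed count of 390590 to 490620 over 8 genes (group means 474450 for 5 % CTRL, 423490 for 1 % CTRL, 442900 for 5 % STIM, 407910 for 1 % STIM). The 3 myoblast markers summed to between 1611 and 4001, and their group means went from 3852 (5 % CTRL) and 3059 (5 % STIM) to 2518 (1 % CTRL) and 1856 (1 % STIM). That sum is mostly Myod1, which fell under 1 % O2 at rest by 0.83 on the log2 scale (mean 3524 to 2001), while Pax7 (179 to 287) and Myf5 (149 to 230.8) rose by 0.69 and 0.63. With stimulation the mean of Myod1 went from 3524 to 2727 under 5 % O2 and from 2001 to 1325 under 1 % O2. That of Pax7 was lower as well, and that of Myf5 higher. Of the myotube markers, Myog had means of 30613 (5 % CTRL), 19439 (1 % CTRL), 21265 (5 % STIM) and 12522 (1 % STIM). Means were also lower in 1 % CTRL than in 5 % CTRL for Myh3 (139000 to 105590), Ttn (39259 to 33394), Tnnt3 (44759 to 42123) and Ckm (9067.6 to 8072.7). Mymk, Acta1 and Des had slightly higher means in 1 % CTRL than in 5 % CTRL. Levels of Myod1, Pax7, Myf5 and Myog thus moved with oxygen and with stimulation, as several members did. Their part in the results was not tested. Sums were 27.6 to 70.5 for 3 immune markers, 2.04 to 13.3 for 2 endothelial ones and at most 1.04 for 2 adipocyte and 2 neuronal ones. Of the defining markers of other cells, Plin1 (adipocytes) and Snap25 (neurons) were listed at 0 in all 24 libraries. The immune marker Ptprc was at 0 in 21 of them. Cd68, also listed as an immune marker, was above 0 in all 24 (27.6 to 69.4) and made up nearly all of the immune sum. Adm and Slc2a1, which are induced by low oxygen in most cells, rose under 1 % O2 at rest by 3.97 and 2.20 on the log2 scale. Vegfa, the other gene checked for oxygen, had means of 8067 in 5 % CTRL and 11375 in 1 % CTRL. With stimulation its mean was lower under 1 % O2 (8587) than under 5 % O2 (9133). The library of 1 % CTRL replicate 1 stood apart, since its values rose with exon length by 0.0945 log2 units per doubling of length, against -0.0367 to 0.0550 in the other libraries. In bulk RNA, fewer cells of a kind and less RNA per cell cannot be told apart.

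Levels were compared between genes per kilobase of annotated exon, which need not be the length of the transcript made in these cells. Bnip3 stood highest of the 10 genes in all 4 groups and Optn lowest. In 5 % CTRL the mean level per kilobase was 1693 ± 179 (SD, n = 6) for Bnip3, followed by Bnip3l with 852 ± 40.0 and Gabarapl1 with 727 ± 53.2. The range of Gabarapl1 overlapped both that of Bnip3l and that of Pink1, the next gene, at 629 ± 38.3 per kilobase. Phb2 (536 ± 22.7) and Fkbp8 (485 ± 37.7) came next and overlapped each other. Ulk1 (394 ± 23.7), the pair of Fundc1 (308 ± 7.46) and Map1lc3b (292 ± 10.7), and Optn (214 ± 8.16) closed the order, and within that pair the ranges overlapped. Under 1 % O2 at rest Ulk1 moved from the seventh to the fourth place, with 682 ± 18.6 per kilobase, a range that overlapped that of Gabarapl1 above it. In both stimulated groups Gabarapl1 took the second place from Bnip3l, with 999 ± 34.3 against 908 ± 27.7 per kilobase in 5 % STIM, where the ranges did not overlap, and 1096 ± 56.8 against 1078 ± 47.1 in 1 % STIM, where they did.

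**Figure D1:**
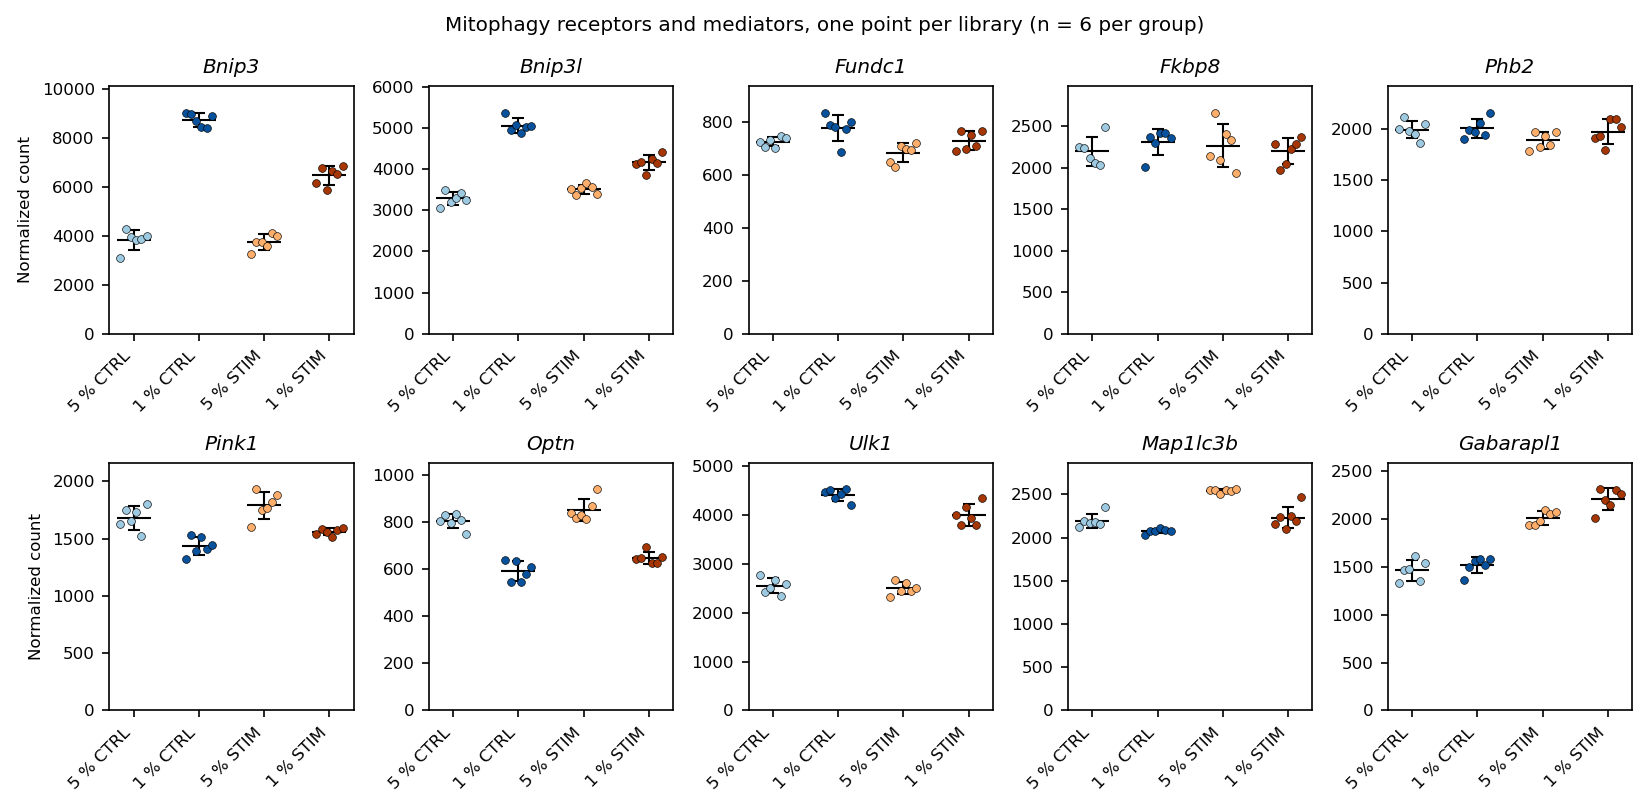
Normalized counts (vertical axis, from 0) of the 10 genes in the 4 groups, with a point for each library and a bar for the mean and SD of 6 libraries. The 6 libraries of 1 % CTRL lie between 8380.4 and 9020.4 for Bnip3, above all those of 5 % CTRL (3075 to 4291), whereas Phb2 has group means of 1886 to 2003.

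The stretches of DNA before the start sites of 3 genes were chosen after their values were seen, namely those of Bnip3 and Ulk1, the genes that rose most under 1 % O2 among those with an entry, and that of Optn, which fell most. They run from 250 to 20 bases before the start that RefSeq gives on the build GRCm38.p6, on the strand of the gene. Capitals mark ACGTG and GCGTG on either strand, the 5-letter cores known for the hypoxia-inducible factors, so that CACGT and CACGC are the same cores read on the opposite strand. The windows lie at chr7:138909526-138909756 for Bnip3, chr5:110810101-110810331 for Ulk1 and chr2:5064137-5064367 for Optn, all on the reverse strand.
Bnip3: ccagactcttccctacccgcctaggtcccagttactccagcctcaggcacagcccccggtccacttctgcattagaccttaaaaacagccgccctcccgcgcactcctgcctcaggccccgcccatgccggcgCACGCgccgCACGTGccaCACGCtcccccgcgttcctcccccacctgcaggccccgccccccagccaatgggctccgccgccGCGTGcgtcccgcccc
Ulk1: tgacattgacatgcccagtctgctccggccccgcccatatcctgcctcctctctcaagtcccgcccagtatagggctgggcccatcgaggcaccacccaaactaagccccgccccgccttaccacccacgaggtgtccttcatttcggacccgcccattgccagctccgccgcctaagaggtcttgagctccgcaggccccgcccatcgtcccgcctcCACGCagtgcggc
Optn: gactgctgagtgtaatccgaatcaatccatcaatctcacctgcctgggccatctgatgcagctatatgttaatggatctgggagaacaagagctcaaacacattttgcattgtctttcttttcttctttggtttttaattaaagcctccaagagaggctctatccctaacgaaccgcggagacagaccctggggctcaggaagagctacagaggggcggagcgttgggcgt
The Bnip3 window holds 5 matches, of which the ACGTG cores at positions -108 and -107 are the opposite strands of a single palindrome and overlap. The others are GCGTG cores starting at -117, -99 and -35. The Ulk1 window holds 1 match, at -32, and the Optn window holds 0. Among the other members with an entry, Map1lc3b had 5 matches, Fkbp8 had 2, Pink1 and Phb2 had 1 each, and Fundc1 and Gabarapl1 had 0. Bnip3l has no entry in the table used, so 9 of the 10 genes were read. Of 32851 RefSeq promoters in the same window, 36.1 % hold either core (15.2 % ACGTG and 26.2 % GCGTG), so a match describes the sequence and is not evidence of a bound site.

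The first comparison asked what 2 h under 1 % O2 did in unstimulated myotubes. Of the 10 genes, Bnip3, Bnip3l and Ulk1 rose and Optn, Pink1 and Map1lc3b fell, by limma with an adjusted p under 0.05. Over all genes tested, 59.9 % were called in this comparison, so 6 of 10 is about the share of all genes. The median log2 change was 0.063 over the 10 genes and 0.0015 over all genes.

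Bnip3, the outer membrane receptor (ENSMUSG00000078566, chr7:138890836-138909519 on the reverse strand of GRCm38), showed the largest change of the 10. Its counts ran from 3075 to 4291 with a median of 3899.5 in 5 % CTRL, from 8380.4 to 9020.4 with a median of 8783 in 1 % CTRL, from 3259 to 4133 with a median of 3750.5 in 5 % STIM, and from 5878 to 6859 with a median of 6580.0 in 1 % STIM. All libraries under 1 % O2 lay above all libraries under 5 % O2, and within 1 % O2 the stimulated libraries lay below the unstimulated ones. Between 1 % CTRL and 5 % CTRL the means were 8724 ± 276 and 3834 ± 406 (SD, n = 6), a fold of 2.28 and a log2 change of 1.19 ± 0.0625 (SE, adjusted p = 5.17e-14, limma). The sequence of Bnip3 is partly shared with other genes, since 34.4 % of the 75-base words of its exons also occur elsewhere. The methods describe reads longer than these words, so how many reads are affected is not known. The largest share of words, 20.4 %, lies in the long non-coding RNA AC160336.1, whose mean count was 149 for 5 % CTRL, 824 for 1 % CTRL, 155 for 5 % STIM and 590.5 for 1 % STIM. It came to between 3.88 and 9.44 % of the count of Bnip3. With those reads added to Bnip3, an alternative chosen after the data were seen, the log2 change was 1.27 (adjusted p = 3.32e-15).

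Bnip3l, the paralogue of Bnip3 with the same role (ENSMUSG00000022051, chr14:66985239-67008877, reverse strand), rose as well. Its counts ran from 3064 to 3497 (median 3270.1) in 5 % CTRL, 4866 to 5369 (median 5030.2) in 1 % CTRL, 3369 to 3650.3 (median 3525) in 5 % STIM and 3851 to 4402 (median 4165) in 1 % STIM. The groups at 1 % O2 did not overlap those at 5 % O2. The fold between 1 % CTRL (5054 ± 172) and 5 % CTRL (3289 ± 155) was 1.54, and the log2 change was 0.62 ± 0.0331 (SE, adjusted p = 1.74e-17). Its pseudogene Bnip3l-ps, which shares 16.9 % of its words, had mean counts of 2.54 to 6.27.

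The other receptors did not pass the test of the main fit in any of the 5 comparisons. Fundc1 (ENSMUSG00000025040, chrX:17556564-17572325, reverse strand) had means of 725 ± 17.6 for 5 % CTRL, 778 ± 49.5 for 1 % CTRL, 683 ± 36.1 for 5 % STIM and 729 ± 35.0 for 1 % STIM. Its log2 change under 1 % O2 at rest was 0.099 ± 0.0447 (SE, adjusted p = 0.0545), and it came under the threshold with edgeR (0.0366), DESeq2 (0.0495) and voom (0.039) on the recovered reads, and without 1 % CTRL replicate 4 (0.00744) or 5 % STIM replicate 2 (0.0484). Fkbp8, the receptor that also binds proteins of cell death, had means between 2195 and 2307 and a log2 change of 0.073 ± 0.0675 (adjusted p = 0.369). Phb2, the inner membrane receptor, had means between 1886 and 2003 and a log2 change of 0.0077 ± 0.0390 (adjusted p = 0.880).

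Ulk1, the kinase that starts the phagophore (ENSMUSG00000029512, chr5:110784488-110810097, reverse strand), rose too. Its counts ran from 2353 to 2769 (median 2555) in 5 % CTRL, 4218 to 4536.5 (median 4458) in 1 % CTRL, 2332 to 2675 (median 2486) in 5 % STIM and 3791 to 4349.6 (median 3971) in 1 % STIM. The groups of the 2 oxygen levels did not overlap. The fold at rest was 1.73, from 2556 ± 153 to 4422 ± 121, and the log2 change was 0.79 ± 0.0386 (SE, adjusted p = 1.47e-18).

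Optn and Pink1, the 2 members of the ubiquitin-dependent branch, moved the other way. Optn, the adaptor (ENSMUSG00000026672, chr2:5020642-5064051, reverse strand), had counts of 749 to 834 (median 807) in 5 % CTRL, 545 to 639 (median 594) in 1 % CTRL, 813 to 940.1 (median 833) in 5 % STIM and 625 to 692 (median 645) in 1 % STIM, and the libraries of the 2 oxygen levels did not overlap. At rest Optn fell by 0.44 on the log2 scale (SE 0.0459, adjusted p = 3.53e-10), a mean of 593 ± 42.5 against 804 ± 30.6. Pink1 (ENSMUSG00000028756, chr4:138313409-138326307, reverse strand) had counts of 1519.5 to 1802 (median 1697) in 5 % CTRL and 1325 to 1530.2 (median 1428) in 1 % CTRL, ranges that overlapped, and 1598.3 to 1933.5 (median 1793) in 5 % STIM and 1512 to 1597.7 (median 1566) in 1 % STIM. At rest Pink1 fell by 0.23 (SE 0.0425, adjusted p = 2.09e-05).

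Of the 2 members that encode ATG8 proteins, 1 passed the test at rest. Map1lc3b, which encodes LC3B (ENSMUSG00000031812, chr8:121590361-121598760, forward strand), had means of 2193.5 ± 80.3 in 5 % CTRL and 2074 ± 25.5 in 1 % CTRL, ranges that did not overlap, and fell by 0.080 (SE 0.0315, adjusted p = 0.0277). That call depended on the scaling, on the filter and on 1 library: the log2 change was 0.00033 (adjusted p = 0.994) once libraries were brought to equal totals, and the adjusted p was 0.0588 without the filter on low counts and 0.0966 without 5 % CTRL replicate 6. Gabarapl1, of the GABARAP subfamily, had a log2 change of 0.054 ± 0.0433 (adjusted p = 0.288). In all, the 2 groups did not overlap for 5 of the 10 genes (Bnip3, Bnip3l, Ulk1, Optn and Map1lc3b), against 38.2 % of all genes tested. Without 1 % CTRL replicate 1 the same 6 genes were called, with log2 changes of 1.18 for Bnip3, 0.60 for Bnip3l, 0.79 for Ulk1, -0.46 for Optn, -0.205 for Pink1 and -0.074 for Map1lc3b (adjusted p = 0.0484). Over all genes tested, 8955 were called without that library.

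The rescaling bears on the direction of small changes, because normalized totals were lower under 1 % O2 (26006086 to 26812671 over 12 libraries) than under 5 % O2 (27274973 to 28371342). Rescaled to the same total, the median log2 change of all genes between 1 % CTRL and 5 % CTRL was 0.082, and 62.7 % of called genes were higher in place of 49.1 %. Fundc1 (0.18) and Gabarapl1 (0.13) then passed the threshold as well, and the directions of Bnip3, Bnip3l, Ulk1, Optn and Pink1 held.

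**Figure D2:**
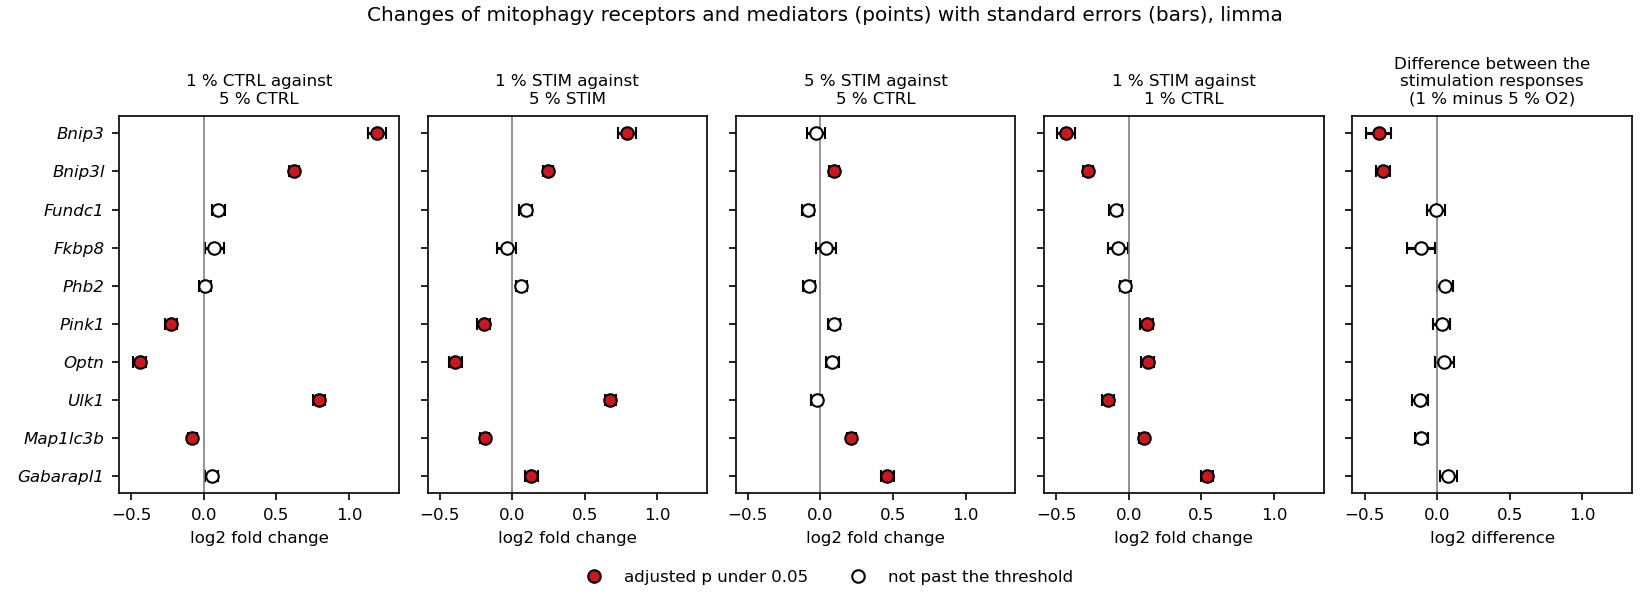
Log2 change (horizontal axis) of each gene (rows) in the 5 comparisons, with bars for the standard error of limma; filled points passed an adjusted p of 0.05. Bnip3, Bnip3l and Ulk1 lie to the right in both oxygen comparisons (1.19, 0.62 and 0.79 at rest), Gabarapl1 in both stimulation comparisons (0.46 and 0.54), and in the last panel only Bnip3 (-0.40) and Bnip3l (-0.37) passed.

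The second comparison asked the same of stimulated myotubes, with 12 libraries that the first did not use. Bnip3, Bnip3l, Ulk1 and Gabarapl1 were higher in 1 % STIM than in 5 % STIM and Optn, Pink1 and Map1lc3b lower, which is 7 of 10 against 57.4 % of all genes tested. The median log2 change was 0.079 over the 10 genes and -0.00083 over all genes. The 6 genes called at rest were all called in the same direction here, against 76.8 % of the 8708 genes called at rest over the whole table. The groups did not overlap for 6 of the 10 genes, against 37.3 % of all genes.

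Under stimulation the oxygen response of Bnip3 was a fold of 1.73, with 6467 ± 380 in 1 % STIM against 3746 ± 310 in 5 % STIM, and a log2 change of 0.79 ± 0.0625 (SE, adjusted p = 1.36e-10, limma). That of Bnip3l was a fold of 1.19 (4160 ± 182 against 3506 ± 107) and a log2 change of 0.25 ± 0.0331 (adjusted p = 9.37e-08). Ulk1 rose 1.60-fold, by 0.68 ± 0.0386 on the log2 scale (adjusted p = 1.38e-16). For all 3 genes the 6 libraries of 1 % STIM lay above the 6 of 5 % STIM.

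Optn fell by 0.39 (SE 0.0459, adjusted p = 5.84e-09) and Pink1 by 0.20 (SE 0.0425, adjusted p = 0.000167), each with no overlap between the groups. For Pink1 the ranges nearly touched, with a highest count of 1597.7 in 1 % STIM and a lowest of 1598.3 in 5 % STIM. Map1lc3b fell by 0.19 (SE 0.0315, adjusted p = 4.16e-06), and this call held with rescaled libraries, at a log2 change of -0.12. Gabarapl1 rose by 0.13 (SE 0.0433, adjusted p = 0.00898), with 2205 ± 114 against 2010.2 ± 69.0 and overlapping ranges. Rescaling to the same total moved the share of called genes that were higher from 50.4 to 63.2 %, with Fundc1 (0.16) and Phb2 (0.13) then also called. Fundc1 also passed without 1 % CTRL replicate 4 (0.0484), 5 % STIM replicate 6 (0.0455) or 1 % STIM replicate 1 (0.044), and Phb2 without 1 % STIM replicate 3 (0.0443).

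**Figure D3:**
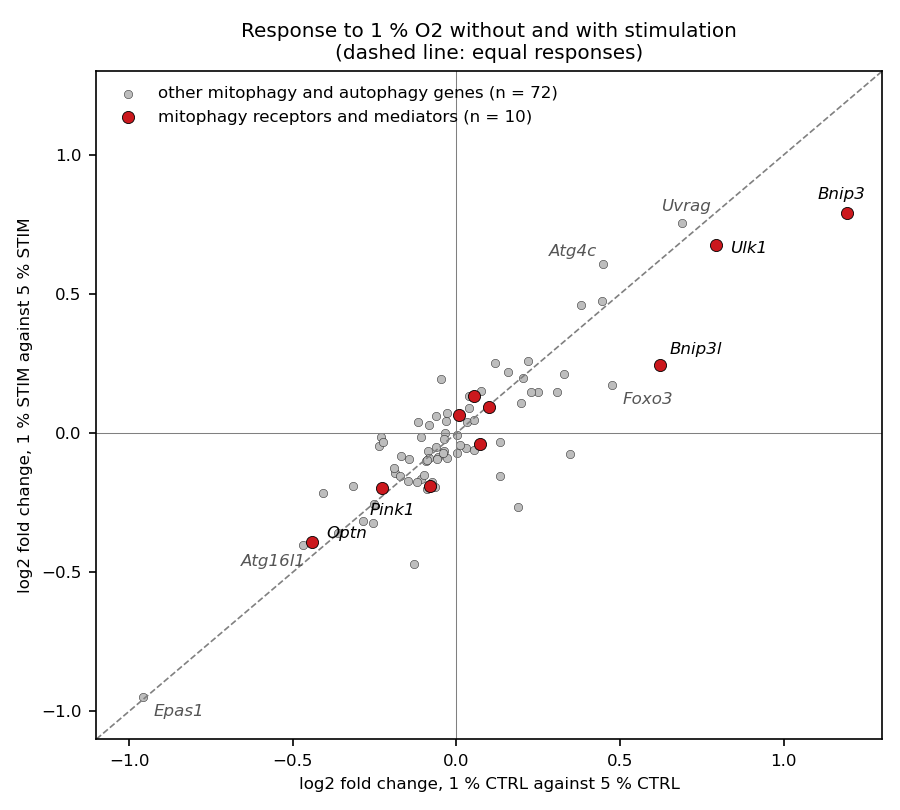
Log2 change under 1 % O2 without stimulation (horizontal axis) and with stimulation (vertical axis) for the 10 genes and for 72 other genes of mitophagy and autophagy; the dashed line marks equal changes. Bnip3 (1.19 and 0.79) and Bnip3l (0.62 and 0.25) lie below the line, and Ulk1 (0.79 and 0.68) lies close to it.

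The third comparison asked what stimulation did under 5 % O2. Of the 10 genes Gabarapl1, Map1lc3b and Bnip3l rose, which is 3 of 10 against 21.4 % of all genes tested. The median log2 change was 0.060 over the 10 genes and -0.0076 over all genes. For Gabarapl1 and Map1lc3b the groups did not overlap, which is 2 of 10 genes against 11.1 % of all genes. Stimulation under 5 % O2 was marked in the same libraries by Cxcl1, a chemokine gene that contracting muscle cells are known to express. Its means were 7.19 in 5 % CTRL and 3239 in 5 % STIM. Fos, an immediate early gene, had means of 108 and 96.4 and did not pass the test. Nr4a3, the other gene checked for stimulation, had means of 70.1 and 101.5.

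Gabarapl1 (ENSMUSG00000030161, chr6:129533160-129542346, forward strand) had the largest response to stimulation of the 10 genes under 5 % O2. Its counts ran from 1331 to 1610.4 (median 1469) in 5 % CTRL, 1364 to 1581 (median 1543) in 1 % CTRL, 1936 to 2089 (median 2015) in 5 % STIM and 2009.9 to 2313 (median 2229.7) in 1 % STIM. Both stimulated groups lay above both unstimulated groups. Under 5 % O2 the fold was 1.37 and the log2 change 0.46 ± 0.0433 (SE, adjusted p = 3.19e-10). A gene on the opposite strand, 1700101I11Rik, covers 28.3 % of the exons of Gabarapl1, and the settings used for counting ignore strand, so reads of the pair cannot be told apart. Its group means lay between 5.46 and 25.6, at most 1.75 % of those of Gabarapl1.

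Map1lc3b had counts of 2119 to 2349.7 (median 2173) in 5 % CTRL, 2028 to 2106 (median 2077) in 1 % CTRL, 2501 to 2560.2 (median 2545.5) in 5 % STIM and 2101 to 2466 (median 2210.0) in 1 % STIM. The libraries of 5 % STIM stood above those of every other group. Map1lc3b rose by 0.21 ± 0.0315 (SE, adjusted p = 3.44e-06) under 5 % O2, from 2193.5 ± 80.3 to 2540.5 ± 20.7.

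The rise of Bnip3l was small, 0.093 ± 0.0331 on the log2 scale (adjusted p = 0.0412), with overlapping ranges. It was lost when any of 8 single libraries was left out (replicates 1, 3, 4 and 6 of 5 % CTRL and 1, 3, 4 and 5 of 5 % STIM), with an adjusted p of up to 0.128. It was also lost without the filter on low counts (0.0748) and with the trend on exon length removed (0.146). Bnip3 itself had a log2 change of -0.030 ± 0.0625 (adjusted p = 0.788) and Ulk1 of -0.027 ± 0.0386 (adjusted p = 0.684). Pink1 (0.091, adjusted p = 0.129) and Optn (0.081, adjusted p = 0.226) did not pass the test either. Pink1 passed it without 5 % STIM replicate 1 (0.0298) and after rescaling to equal totals (0.0363), where 62.2 % of called genes were higher in place of 44.0 %. Fundc1 (-0.086, adjusted p = 0.18) and Phb2 (-0.078, adjusted p = 0.159) did not pass in the main fit of limma. Both were called lower by limma with the trend on exon length removed (adjusted p = 0.0449 for Fundc1 and 0.0378 for Phb2).

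The fourth comparison asked what stimulation did under 1 % O2. Gabarapl1, Map1lc3b, Optn and Pink1 rose and Bnip3, Bnip3l and Ulk1 fell, which is 7 of 10 against 22.3 % of all genes tested. The median log2 change was -0.048 over the 10 genes and -0.0031 over all genes. The groups did not overlap for Bnip3, Bnip3l and Gabarapl1, 3 of 10 genes against 11.2 % of all genes. The comparison shares the 1 % CTRL libraries with the first and the 1 % STIM libraries with the second. After rescaling, 62.4 % of called genes were higher in place of 51.4 %. Of the genes checked for stimulation, Cxcl1 had means of 8.20 in 1 % CTRL and 167 in 1 % STIM, far below the 3239 of 5 % STIM. Fos had means of 94.2 and 91.0 and Nr4a3 of 129 and 188.

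Bnip3 fell by 0.43 on the log2 scale (SE 0.0625, adjusted p = 1.13e-05), a fold of 0.741. Bnip3l fell by 0.28 (SE 0.0331, adjusted p = 3.43e-08), a fold of 0.823. Ulk1 fell by 0.14 (SE 0.0386, adjusted p = 0.00602), with 4010 ± 220 against 4422 ± 121 and overlapping ranges. All 6 stimulated libraries lay below the unstimulated mean for each of these 3 genes. Gabarapl1 rose 1.45-fold, by 0.54 ± 0.0433 (adjusted p = 5.62e-12), and Map1lc3b by 0.10 ± 0.0315 (adjusted p = 0.0144).

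The rises of Optn (0.13 ± 0.0459, adjusted p = 0.0364) and Pink1 (0.12 ± 0.0425, adjusted p = 0.0342) were near the threshold. The call of Optn was lost without any of 6 single libraries (replicates 2, 4 and 5 of 1 % CTRL and 2, 3 and 6 of 1 % STIM) and that of Pink1 without any of 7 (replicates 1, 3 and 5 of 1 % CTRL and 2, 3, 5 and 6 of 1 % STIM). Without the filter both calls were lost (adjusted p = 0.077 for Optn and 0.0698 for Pink1), and that of Optn also with only the 2 groups in the fit (0.0708). Without 1 % STIM replicate 6 that of Map1lc3b was lost too (adjusted p = 0.0594). This left 4 of the 10 genes called, against 3160 of the 14541 genes tested. The call of Map1lc3b was also lost with the length trend removed (0.0742). Without 1 % CTRL replicate 1, 6 of the 10 genes were called, against 3748 of all genes tested. Pink1 was the gene lost (adjusted p = 0.0788). Fundc1 passed without 1 % CTRL replicate 4 (0.0323).

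Whether stimulation acted differently at the 2 oxygen levels was tested by the interaction, the stimulation response under 1 % O2 minus that under 5 % O2. It passed for 2 of the 10 genes, Bnip3 and Bnip3l, both lower, against 11.3 % of all genes tested. The median difference was -0.057 over the 10 genes and 0.0072 over all genes. For Bnip3 the responses were -0.43 under 1 % O2 and -0.030 under 5 % O2, a difference of -0.40 ± 0.0884 (SE, adjusted p = 0.00372). For Bnip3l they were -0.28 and 0.093, a difference of -0.37 ± 0.0468 (adjusted p = 6.69e-07). The same difference can be read as an oxygen response that was smaller with stimulation than at rest. Without 1 % CTRL replicate 1 the differences were -0.39 for Bnip3 and -0.36 for Bnip3l, and both passed. For Ulk1 the difference was -0.12 ± 0.0546 (adjusted p = 0.182) and for Map1lc3b -0.11 ± 0.0445 (adjusted p = 0.117), which is not evidence that the responses were equal. The difference of Map1lc3b passed with limma array weights (0.0459), without 5 % CTRL replicate 6 (0.0463) and without 1 % STIM replicate 6 (0.0181). For Gabarapl1 it was 0.079 ± 0.0612 (adjusted p = 0.455). Vegfa and Slc2a1, known targets of the hypoxia-inducible factors, had differences of -0.59 and -0.52 that passed the test as well. The mean of Vegfa was lower in 1 % STIM (8587) than in 5 % STIM (9133).

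Members were next set against related genes within each library, as the log2 ratio of the 2 counts, which does not depend on the scaling of the library. Over 8 pairs and 4 comparisons, 32 two-sided exact permutation tests were run, with Benjamini-Hochberg adjustment over all 32. The smallest p that 6 against 6 libraries can give is 0.00216. The ratio of Bnip3 to its paralogue Bnip3l rose from 0.21 ± 0.114 in 5 % CTRL to 0.79 ± 0.0439 in 1 % CTRL (adjusted p = 0.00577, exact permutation test). It rose likewise from 0.092 ± 0.135 in 5 % STIM to 0.64 ± 0.0393 in 1 % STIM (adjusted p = 0.00577, exact), and fell by 0.15 with stimulation under 1 % O2 (adjusted p = 0.00577, exact). Bnip3 thus changed by more than Bnip3l in each of these 3 comparisons.

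Ulk1 changed by more than its paralogue Ulk2. Ulk2 had means of 2036 in 5 % CTRL and 2089 in 1 % CTRL (adjusted p = 0.365, limma) and rose by 0.13 between 5 % STIM and 1 % STIM (adjusted p = 0.00112, limma), and the log2 ratio of Ulk1 to Ulk2 rose by 0.76 at rest and by 0.54 with stimulation (adjusted p = 0.00577 for each, exact permutation test). With stimulation under 1 % O2 the ratio fell by 0.23 (adjusted p = 0.0107, exact).

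The ATG8 genes also parted. The ratio of Gabarapl1 to Gabarap rose with stimulation by 0.44 under 5 % O2 and by 0.53 under 1 % O2, and that of Gabarapl1 to Gabarapl2 by 0.20 and 0.56 (adjusted p between 0.00577 and 0.0148, exact permutation tests). Under 5 % O2 Gabarapl2 itself rose by 0.26 (adjusted p = 0.000589, limma). The ratio of Map1lc3b to Map1lc3a passed in 0 of the 4 comparisons, with p values from 0.0649 to 0.857 (exact permutation test, unadjusted), and the SD of that ratio reached 0.388 in 1 % CTRL.

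Optn and Sqstm1, which encodes the adaptor p62, both bind ubiquitin and ATG8 proteins. A gene on the opposite strand, Mrnip, covers 17.3 % of the exons of Sqstm1, and its counts are not given here. The counting ignores strand, so reads from that stretch cannot be told apart. The log2 ratio of Optn to Sqstm1 fell in all 4 comparisons, by 0.19 under 1 % O2 at rest and by 0.14 with stimulation, and by 0.39 and 0.34 with stimulation under 5 % and 1 % O2 (adjusted p between 0.00577 and 0.0173, exact permutation tests).

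The ratio of Fundc1 to Fundc2 fell by 0.11 with stimulation under 5 % O2 (adjusted p = 0.0204, exact permutation test) and was higher by 0.10 in 1 % STIM than in 5 % STIM (adjusted p = 0.0269, exact). The ratio of Phb2 to Phb fell by 0.30 under 1 % O2 at rest (adjusted p = 0.0474, exact). Phb shares 28.5 % of its words with other genes, so its counts are uncertain.

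**Figure D4:**
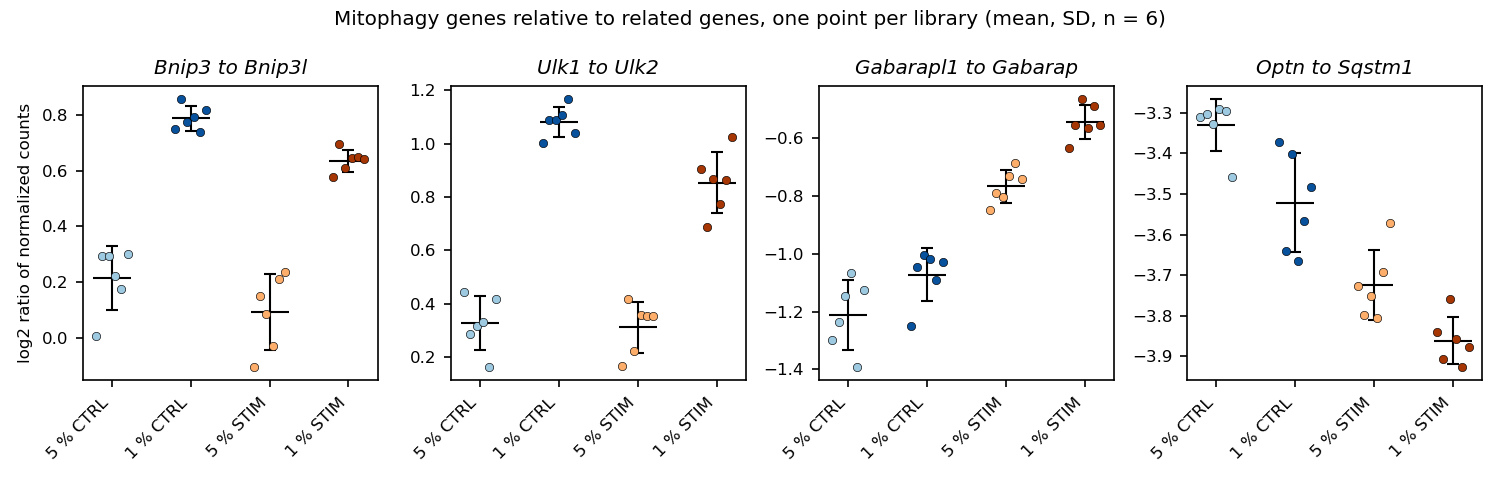
Log2 ratio of normalized counts (vertical axis) for 4 pairs of genes in the 4 groups, with a point for each library and a bar for the mean and SD of 6 libraries. The ratio of Bnip3 to Bnip3l is 0.21 in 5 % CTRL and 0.79 in 1 % CTRL, that of Gabarapl1 to Gabarap is -1.21 in 5 % CTRL and -0.77 in 5 % STIM, and that of Optn to Sqstm1 falls from -3.33 to -3.86 between 5 % CTRL and 1 % STIM.

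Other genes of mitophagy and autophagy were taken from 12 lists, of which 72 genes were tested. Under 1 % O2 at rest 17 of them rose and 22 fell, 54.2 % against 59.9 % of all genes, with a median log2 change of -0.044. With libraries rescaled to the same total the counts were 25 and 13, with 9 of the falls lost and 8 rises gained, so the balance between rises and falls rests on the scaling. The lists held examples in both directions. Of 4 factors known to act on autophagy or hypoxia genes, 3 rose and 1 fell. Foxo3 rose by 0.48 (SE 0.0380, adjusted p = 6.35e-13) and Foxo1 by 0.35, while the scarce Epas1, which encodes HIF-2 alpha, fell by 0.96 (SE 0.179, adjusted p = 2.09e-05) from a mean of 36.5 to 18.6.

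Within the machinery that forms the phagophore, Ulk2 (0.037) and Atg13 (0.033) of the ULK complex did not pass the test under 1 % O2 at rest. Both were called higher once libraries were rescaled to the same total, by 0.12 for Ulk2 and 0.11 for Atg13. Of 7 genes of the PI3K complex, which makes the lipid that marks the phagophore, Uvrag rose by 0.69 (SE 0.0549, adjusted p = 6.46e-13) and Pik3r4 by 0.12, whereas Atg14 fell by 0.41 (SE 0.0546, adjusted p = 7.62e-08), and Pik3c3 by 0.17, a call that was lost on rescaling, and 1 further gene fell. Atg2b and Atg9a, which supply membrane lipids, rose by 0.38 and 0.25, and 3 of 7 genes of phagophore growth rose in all. In the conjugation of ATG8 proteins, 2 of 10 genes rose and 5 fell, led by the protease gene Atg4c with 0.45 (adjusted p = 1.37e-09) and Atg16l1 with -0.47 (adjusted p = 1.64e-13). Atg7, the enzyme that activates ATG8 proteins, rose by 0.20 and Atg4a fell by 0.26.

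Of 14 other genes of the PINK1 branch, 2 rose and 4 fell, and further genes of this list were called higher only after rescaling. The ligase gene Mul1 fell by 0.36 (adjusted p = 1.01e-06) and Pgam5, which encodes a mitochondrial phosphatase, by 0.32 (adjusted p = 5.88e-08), while Vdac1, which encodes a pore of the outer membrane, rose by 0.20 (adjusted p = 5.66e-08) and the deubiquitinase gene Usp8 by 0.076. Of 5 cargo adaptors tested, 1 rose and 3 fell, among them Nbr1 with 0.16, Sqstm1 with -0.25 (adjusted p = 2.00e-11) and Tbk1, the kinase of optineurin, with -0.23. Of 5 other mitophagy receptors, Phb rose by 0.31, Bcl2l13 fell by 0.19 (adjusted p = 8.10e-07) and Nipsnap2 by 0.10, the last lost on rescaling. Fbxl4, which encodes the ligase subunit that limits BNIP3 and BNIP3L, rose by 0.44 (SE 0.0684, adjusted p = 1.00e-06).

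Of the 3 other ATG8 genes, Gabarapl2 rose by 0.13 and Gabarap fell by 0.085, the latter lost on rescaling. Mief1, an adaptor of the fission protein DRP1, fell by 0.17 (adjusted p = 3.35e-06) and was the 1 gene called of 5 for mitochondrial fission in the main fit. Other fission genes were called higher only after rescaling. Of 7 genes of the lysosome and its regulators, Mitf rose by 0.22 and Tfeb (-0.29) and the protease gene Ctsb (-0.11) fell, and both falls were lost on rescaling.

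With stimulation under 5 % O2 the same 72 genes gave 15 rises and 4 falls, 26.4 % against 21.4 % of all genes, with a median log2 change of 0.028. Rescaling to the same total gave 19 and 3. The largest rise was that of Sqstm1, by 0.47 ± 0.0230 (SE, adjusted p = 1.54e-17), from a mean of 8092 to 11240. The limit from the overlap with Mrnip, given above, holds for these counts too. Wdr45 (0.35) and Wipi2 (0.19), which bind the lipid of the phagophore, Tfe3 (0.25), a regulator of lysosomal genes, and Nrbf2 (0.24) and Atg14 (0.19) of the PI3K complex rose as well. Foxo3 rose by 0.20 and Foxo1 by 0.14, Calcoco1 by 0.15, Ctsd by 0.15, Atg13 by 0.12 and Nipsnap2 by 0.11. The falls were Atg4d (-0.30, adjusted p = 0.000340), Rhot2 (-0.16), Ambra1 (-0.15) and Atg3 (-0.14), the last lost on rescaling.

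Under 1 % O2, stimulation gave 15 rises and 5 falls among the 72 genes, 27.8 % against 22.3 % of all genes, and 17 and 2 after rescaling. In stimulated myotubes 1 % O2 gave 17 rises and 24 falls, 56.9 % against 57.4 %, and 23 and 16 after rescaling. The interaction passed for 4 genes higher and 4 lower, 11.1 % against 11.3 %. Foxo3 was among the latter, with a difference of -0.30, and Foxo1 with -0.42. These Foxo genes were picked from the genes that passed after their values were seen, and a relation to Bnip3 or Bnip3l was not tested.

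The genes whose pattern over the 24 libraries was most like that of Bnip3 were sought among 10785 genes with a mean count of at least 100. Pearson's r of the log2 values was 0.982 for Egln3, a prolyl hydroxylase of the hypoxia-inducible factors, 0.982 for P4ha2, a collagen prolyl hydroxylase, 0.981 for Itpk1, an inositol phosphate kinase, 0.978 for Vps26c, of an endosomal sorting complex, and 0.978 for Eno2, a glycolytic enolase. The libraries fall into the groups of the design, so these values describe shared differences between groups and carry no p.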

How the data were processed

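RNA of C2C12 myotubes was measured in 24 libraries, grouped by the deposited labels into 4 groups of 6. The authors made stranded mRNA libraries, checked single-end reads with FastQC 0.11.7, aligned them to GRCm38 with STAR 2.5.4b and estimated gene counts with RSEM 1.3.0 at default settings, which ignore strand. The authors deposited a normalized signal, each count being divided by a DESeq2 size factor of 0.955 to 1.05. Whole reads were recovered from the smallest step in each library, and 100 % of values came out whole within 0.01. A second deposited file holds the authors' own comparisons (log2 fold changes, mean expression, F statistics, p-values and calls) and was not used.

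Genes that reached a normalized count of 10 in 6 or more of 24 libraries were tested with limma 3.58.1 (R 4.3.3; lmFit, contrasts.fit, eBayes with trend and robust) after adding 1 and taking log2. All 4 groups shared 1 fit without a block, and genes were called at a Benjamini-Hochberg adjusted p under 0.05 over the 14541 genes. This log2 scale understates changes of scarce genes. The share of each call rule over all genes stands beside each count of members in the main fit, and not beside every count from an alternative. For log2 ratios between genes, exact permutation tests (two-sided) over libraries were run. Of the genes listed, 99.5 % matched the GENCODE M21 annotation of GRCm38. Scripts were tested on simulated data.

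The members and the gene lists were chosen with earlier results of these data known. A further gene of the PINK1 branch is not reported here. Named genes were the 10 members, their partners in ratios, genes that check the conditions, up to 2 rises and 2 falls per list in 1 % CTRL and in 5 % STIM against 5 % CTRL, and the 5 genes most like Bnip3; Vegfa, Slc2a1 and Foxo genes in the interaction were named after their values were seen. Promoter sequences are from RefSeq. Alternatives were another pseudocount (10), no filter, a replicate block, only the 2 groups compared, rescaling to equal totals, array weights, edgeR 4.0.16, DESeq2 1.42.0 and voom on recovered reads, removal of the trend with exon length, an adjusted p under 0.01, and leaving out each library. Adding the reads of AC160336.1 to Bnip3 was chosen after seeing the data.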

Additional observations from a re-analysis of the deposited data

Results flagged for a closer look

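In 5 of the 40 sets of 6 libraries (10 genes in 4 groups) the highest or lowest library lay apart from the other 5 by Dixon's criterion at the 95 % level. Chance alone sets apart about 1 in 20 such sets. Bnip3 had a normalized count of 3075.0 in 5 % CTRL replicate 1, against 3836 to 4291 in the other libraries of that group. Fkbp8 had 2006.5 in 1 % CTRL replicate 1, against 2290.7 to 2417, and Gabarapl1 had 1364.2 in the same library, against 1500.4 to 1581. That library is the one whose values rose most with exon length. Map1lc3b had 2349.7 in 5 % CTRL replicate 6, against 2119 to 2186, and 2500.7 in 5 % STIM replicate 3, against 2539.5 to 2560.2.

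The response to stimulation differed between the oxygen levels for 2 genes by the interaction test of limma. The difference was -0.4032 on the log2 scale for Bnip3, which fell with stimulation under 1 % O2 in 6 of 6 libraries against the unstimulated mean. It was -0.3743 for Bnip3l, likewise in 6 of 6 libraries.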

How the results depend on the processing

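Of 1695 alternative values of the members' log2 changes, 1618 kept their direction and their side of the threshold, 31 lost the call, 21 gained it and 25 changed sign, all in changes that were not called except that of Map1lc3b. The tally includes values that could not change direction. In a comparison of 2 groups, leaving out a library of another group leaves the log2 change as it was and can alter only its error and adjusted p. Under every alternative run, Bnip3 stayed between 1.13 and 1.27 at rest and its interaction between -0.44 and -0.34, and that of Bnip3l between -0.39 and -0.35. At an adjusted p under 0.01, 1944 genes were called in 5 % STIM against 5 % CTRL, 830 in the interaction, and 4 members in 1 % STIM against 1 % CTRL. Leaving out single libraries gave between 4 and 7 members there, and between 2893 and 3748 of all genes. Rescaled to the same total, sign changes were Map1lc3b at rest (0.0003284), Bnip3 (0.001082) and Ulk1 (0.004749) in 5 % STIM against 5 % CTRL, and Fkbp8 in 1 % STIM against 5 % STIM (0.03134). With the length trend removed they were Phb2 at rest (-0.02087) and Fundc1 in the interaction (0.03791). Leaving out single libraries, changes that crossed 0 ranged from -0.01398 to 0.02455 for Phb2 at rest, -0.09234 to 0.009145 for Bnip3 and -0.009077 to 0.08201 for Fkbp8 in 5 % STIM against 5 % CTRL, -0.04124 to 0.004111 for Phb2 in 1 % STIM against 1 % CTRL, -0.08169 to 0.009404 for Fkbp8 in 1 % STIM against 5 % STIM, and -0.04067 to 0.01578 for Fundc1 and -0.001308 to 0.05995 for Pink1 in the interaction. The cause was not tested. Libraries with the same replicate number did not deviate together (24 pairs, r from -0.148 to 0.155, 5 of 24 best with their own number). A replicate block called 8730 genes in 1 % CTRL against 5 % CTRL and 8350 in 1 % STIM against 5 % STIM. It called 3190 in 5 % STIM against 5 % CTRL, 3320 in 1 % STIM against 1 % CTRL and 1710 in the interaction. Among the members it ended only the call of Bnip3l in 5 % STIM against 5 % CTRL. For Bnip3l the change there was 0.09284 (adjusted p = 0.0533). Reads shared between genes limit Bnip3, and the fewest reads of a member in a library were 568.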
